A study of Mus musculus with 6 samples.

Results

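Solute carriers are the membrane proteins that move nutrients, ions, metals, metabolites and transmitters across the plasma membrane and organelle membranes. They were followed here as every protein-coding gene in the deposited expression table whose symbol begins with Slc and a family number, the organic anion transporters written Slco included, and 35 of the 2195 genes in the table met that rule. The table comes from RNA-Seq of mouse colon tissue in a dextran sulfate sodium (DSS) colitis experiment, with 3 libraries labelled WT, which are Gab1fl/fl littermates carrying the floxed allele without Cre, and 3 labelled KO, which are Gab1IEC-KO mice (VillinCre Gab1fl/fl). All 6 libraries came from mice 8 to 10 weeks old that had 3% DSS, a detergent that injures the colonic epithelium, in their drinking water for 7 days, so no untreated colon was compared. Villin-driven Cre removes Gab1, an adaptor protein of growth factor signaling, only in the intestinal epithelium, and the libraries are of whole tissue. Gab1 was not among the listed genes, and its loss could not be checked in these values.

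In the colon, the absorptive cells of the surface carry transporters for peptides, nucleosides, amino acids, organic anions and ions, and their apical and basolateral sets differ. Macrophages and neutrophils carry another set, among them metal and peptide transporters of the phagosome and lysosome, and lactate and glucose carriers used in glycolysis. Neurons of the gut wall reload vesicles and clear the synapse with transporters of their own.

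Values are normalized counts, that is, the authors' read counts scaled by a factor set for each library, and 1 read was worth 0.912 to 1.06 of them. The table holds only genes that the authors' own comparison of these libraries had put at an unadjusted p under 0.05. Each solute carrier was therefore listed for its difference, no test on it is independent of that choice, and the 350 annotated genes of the class outside the table have no value here. The 35 made up 9.09% of the 385 solute carrier genes in the GENCODE M21 annotation, and the table as a whole held 8.80% of all 21951 annotated protein-coding genes. The listed genes held 1957437 to 2787670 reads in a library, which is not the depth of the library. Nothing in the labels says that the libraries are separate animals, and p-values measure the spread between these libraries. In tissue RNA, fewer cells of a type and less RNA per cell cannot be told apart.

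Of the 35 solute carriers, 23 had a higher mean in Gab1IEC-KO colons and 12 a lower mean, which is 65.7% higher against 70.0% of all listed genes. A gene is said here to have risen or fallen where limma, fitted to the whole table on the scale log2(normalized count + 1), put its unadjusted p under 0.05 and its log2 fold change beyond 1 in either direction. By that rule 9 solute carriers rose (25.7%, against 28.5% of the 2195 listed genes) and 5 fell (14.3%, against 9.16%). By p alone 19 passed (54.3%, against 55.0%). In 11 members every Gab1IEC-KO library lay above every Gab1fl/fl library (31.4%, against 43.0% of all listed genes), and in 7 every one lay below (20%, against 19.3%). These shares were not tested against each other, and nothing particular to the class is read from them. The median log2 fold change was 1.06 among the higher members and -1.15 among the lower ones, beside 1.02 and -0.91 over all listed genes. With groups of 3, the smallest p of an exact permutation test (two-sided) is 0.1. With p-values adjusted by Benjamini-Hochberg over the listed genes, which is less strict than an adjustment over all genes measured and is the adjusted p printed for single genes, limma put 0 of the 35 and 0 of the 2195 under 0.05, edgeR also 0 and 0, and DESeq2 12 and 667. Unadjusted, 1207 listed genes were under 0.05 by limma, 1204 by edgeR and 1405 by DESeq2.

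**Figure D1:**
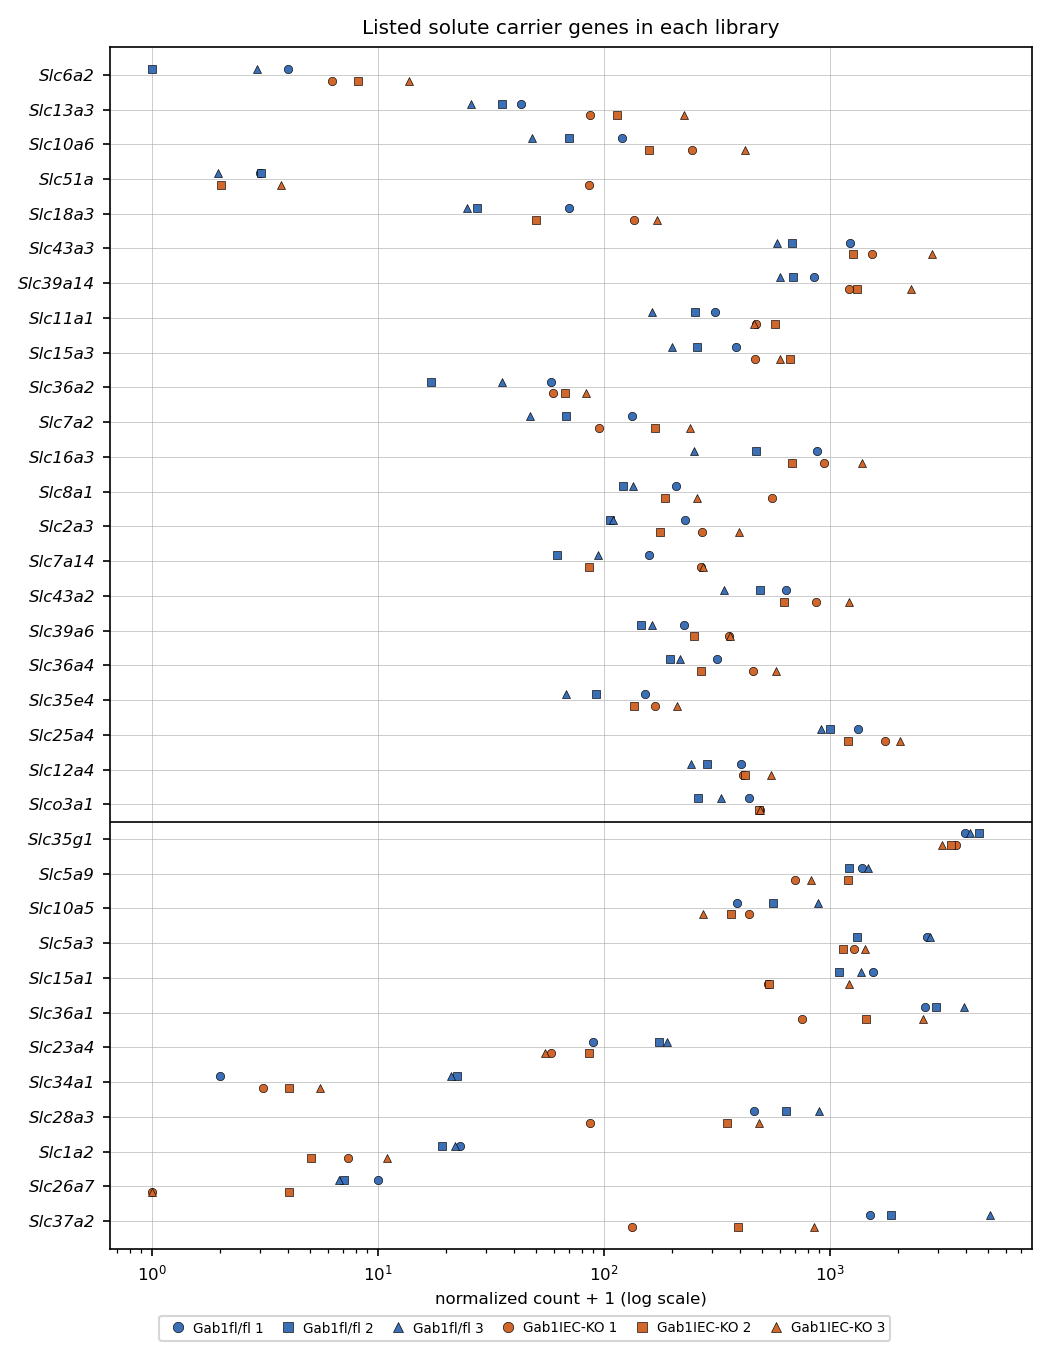
Normalized count plus 1 on a log axis for 34 of the listed solute carrier genes, ordered by log2 fold change, with 1 symbol for each library (blue, Gab1fl/fl; orange, Gab1IEC-KO). Genes above the horizontal line had a higher mean in Gab1IEC-KO colons (22 plotted) and those below it a lower mean (12 plotted); Slc51a stands out through Gab1IEC-KO library 1 alone.

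The members belonged to 25 of the 50 annotated families. Cargo groups were set by family number, so a gene's own cargo can differ. Slc43a3, described as a purine nucleobase carrier, and the glutamate transporter Slc1a2 are therefore counted as amino acid transporters. Amino acid transporters were the most numerous, with 8 of 43 annotated genes listed, 6 of them higher. Carriers of bile acids, steroids and lipids (4 of 29), inorganic ion transporters (4 of 59), metal transporters (3 of 32) and carriers of organic anions and carboxylates (3 of 28) followed. All 3 metal transporters and all 3 organic anion and carboxylate carriers had higher means in Gab1IEC-KO colons. So did both listed genes of the neurotransmitter group (families Slc6 and Slc18). The sodium-coupled sugar and inositol carriers (2 of 13), the single nucleoside carrier (1 of 7) and the single listed gene of the vitamin and nucleotide group (Slc23a4, 1 of 13) had lower means. Over all listed genes 70.0% had higher means and 30.0% lower ones, and the groups were not tested against these shares. No choline and haem carrier (0 of 6), organic cation carrier (0 of 27) or urea transporter (0 of 2) was listed.

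**Figure D2:**
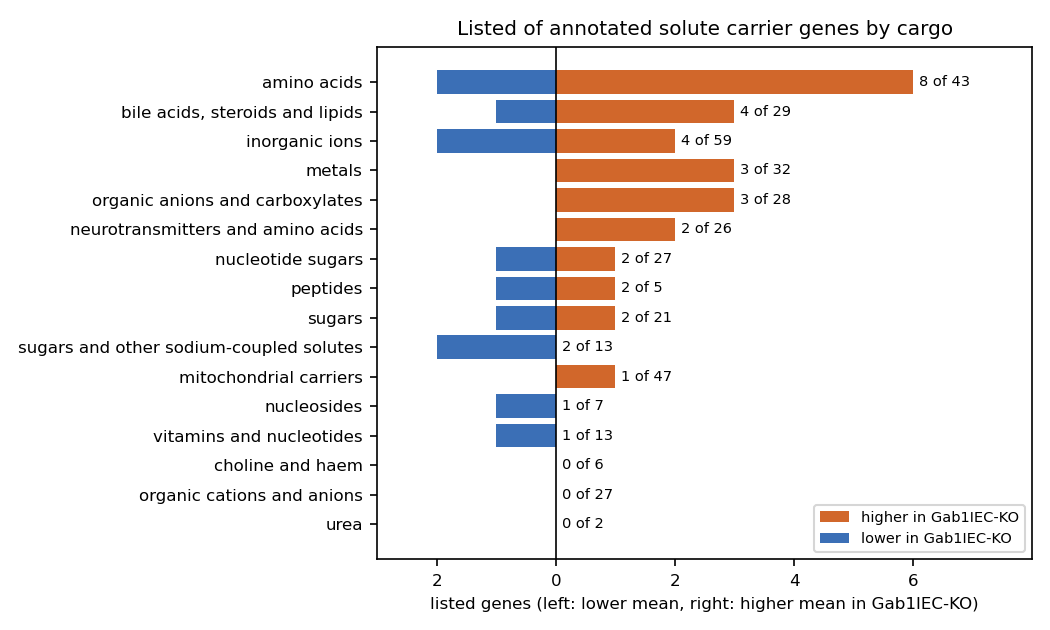
Number of listed solute carrier genes in each cargo group with a higher mean (orange, right) or a lower mean (blue, left) in Gab1IEC-KO colons, with the number listed of the number annotated beside each bar. Amino acid transporters had the most listed genes, 8 of 43, and 3 groups had none.

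Among carriers of organic anions and carboxylates, Slc13a3 showed the largest rise (ENSMUSG00000018459, chr2:165405028-165473230, GRCm38). It encodes a sodium-coupled dicarboxylate transporter that takes up succinate and related intermediates. Its normalized counts were 42.1, 34.6 and 24.9 in Gab1fl/fl libraries 1 to 3 and 85.9, 113 and 226 in Gab1IEC-KO libraries 1 to 3. The groups did not overlap, and the log2 fold change was 1.94 (SE 0.46, adjusted p = 0.0515 by limma). Slc16a3, the lactate exporter of glycolytic cells, had 876, 469 and 249 in the controls and 946, 680.3 and 1390.1 in the knockouts. Gab1fl/fl library 1 lay within the knockout range, and Slc16a3 did not pass (log2 fold change 1.04, SE 0.48, adjusted p = 0.0941 by limma).

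Of the bile acid, steroid and lipid carriers, Slc10a6 rose (ENSMUSG00000029321, chr5:103605711-103629403). It encodes a sodium-dependent transporter of sulfated steroids. Its values were 119, 69.2 and 46.9 normalized counts in Gab1fl/fl and 245, 158 and 422 in Gab1IEC-KO libraries, with no overlap and a log2 fold change of 1.79 (SE 0.49, adjusted p = 0.0585 by limma). Slc10a5, of the same family, had a lower mean in knockouts (388 to 884 in controls, 275 to 440.3 in knockouts). Slco3a1, an organic anion transporter, had 439.5, 259.6 and 329 in controls and 491, 486 and 489.8 in knockouts, the knockout values close together (SD 2.59, n = 3), with a log2 fold change of 0.54 (SE 0.27, adjusted p = 0.104 by limma). Slc51a, the alpha subunit of the basolateral bile acid exporter, had 2.01, 2.04 and 0.96 in controls and 84.9, 1.02 and 2.74 in knockouts. A single knockout library carries that difference, as the log2 fold change of 1.73 (SE 1.27, adjusted p = 0.214 by limma) became 0.07 without Gab1IEC-KO library 1. It passed both thresholds with edgeR (log2 fold change 4.05) and DESeq2 (4.15), which had all 3 knockout libraries. Gab1IEC-KO library 1 held 80 of the 84 knockout reads. Slc51a shares 17.7% of its exon bases with Pcyt1a on the opposite strand, and no source used here states whether the counting used strand. Its partner subunit Slc51b was not listed.

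Both listed genes of the Slc6 and Slc18 families, grouped here as neurotransmitter carriers, rose. The glutamate transporter Slc1a2, grouped by family with the amino acid transporters, fell. Slc18a3 (ENSMUSG00000100241, chr14:32462438-32464850), the vesicular acetylcholine transporter of cholinergic neurons, had 69.2, 26.5 and 23.9 in controls and 135, 49.0 and 171 in knockouts. Gab1IEC-KO library 2 lay below Gab1fl/fl library 1, and the log2 fold change was 1.54 (SE 0.61, adjusted p = 0.0837 by limma). Slc6a2 (ENSMUSG00000055368, chr8:92960079-93001667), the noradrenaline transporter of sympathetic nerve endings, was at a few reads: 3, 0 and 2 in controls and 5, 7 and 14 in knockouts. The groups did not overlap. The knockouts held 5.21 times the controls' level, with an exact 95% counting interval of 1.97 to 17.4 for reads pooled within each group. That interval covers counting error only, not the spread between libraries. The log2 fold change of Slc6a2 was 1.97 (SE 0.63, adjusted p = 0.0669 by limma), or 3.22 with a pseudocount of 0.1. Slc7a14, a neuronal member of the cationic amino acid transporter family, also had a higher mean (61.1 to 158 in controls, 84.8 to 275 in knockouts), without passing. The listed smooth muscle and nerve markers (2 of 7, S100b and Uchl1) summed to 155 to 380.3 in controls and 271 to 689 in knockouts. Their part in the result was not tested.

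All 3 listed metal transporters were higher in every Gab1IEC-KO library than in any Gab1fl/fl library, as were 43.0% of all listed genes. Slc39a14 (ENSMUSG00000022094, chr14:70303469-70351425) imports zinc, iron and manganese. It rose from 847, 688 and 601 to 1213, 1322 and 2285 normalized counts, a log2 fold change of 1.13 (SE 0.30, adjusted p = 0.0563 by limma). Slc11a1 (ENSMUSG00000026177, chr1:74375195-74386062) encodes a divalent metal transporter of the macrophage phagosome known for resistance to intracellular microbes. It had 310.1, 253 and 163 in controls and 469, 573 and 463 in knockouts, a log2 fold change of 1.09 (SE 0.31, adjusted p = 0.0627 by limma). Slc39a6, another zinc importer, ranged from 146 to 225 in controls and from 250 to 359 in knockouts, and its log2 fold change of 0.86 was under the fold threshold.

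Among the amino acid transporters by family, the single rise was that of Slc43a3 (ENSMUSG00000027074, chr2:84936579-84958509), whose product has been described as a purine nucleobase carrier. Its values were 1226, 681 and 581 in controls and 1543, 1267 and 2838 in knockouts. Gab1IEC-KO library 2 exceeded Gab1fl/fl library 1 by a small margin, and the log2 fold change was 1.17 (SE 0.39, adjusted p = 0.0714 by limma). Slc43a2, a transporter of large neutral amino acids, had 642, 493 and 338 in controls and 865, 624 and 1219 in knockouts (log2 fold change 0.87, SE 0.35). Slc7a2, which imports arginine and is induced in activated macrophages, had 132, 67.2 and 46.0 in controls and 94.4, 168 and 241 in knockouts (log2 fold change 1.06, SE 0.51, adjusted p = 0.0991 by limma). In both genes Gab1fl/fl library 1 overlapped the knockouts.

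Slc1a2 and Slc36a1 were the amino acid transporters that fell. Slc1a2 (ENSMUSG00000005089, chr2:102658659-102790784), the high-affinity glutamate transporter best known from astrocytes, was low in every library, with 22.1, 18.3 and 21.1 in controls and 6.37, 4.09 and 10.03 in knockouts. The 3 controls were close together and none overlapped the knockouts (log2 fold change -1.52, SE 0.44, adjusted p = 0.0627 by limma). Slc36a1 (ENSMUSG00000020261, chr11:55204350-55236330) encodes a proton-coupled transporter of small amino acids found at the brush border and on lysosomes. It was abundant, with 2643, 2945 and 3924 in controls and 750, 1453 and 2582 in knockouts. Gab1IEC-KO library 3 lay close below the lowest control, and the log2 fold change was -1.15 (SE 0.43, adjusted p = 0.0794 by limma). It was -0.99 by both edgeR and DESeq2, which is short of the fold threshold.

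The Slc36 family shows 2 neighboring genes on opposite sides of the comparison. Slc36a2 (chr11:55158470-55185077, minus strand) and Slc36a1 (plus strand) are divergent and 19272 bases apart. Slc36a2 had a higher mean in knockouts (16.3 to 57.2 in controls, 58.4 to 82.1 in knockouts, no overlap, log2 fold change 1.07, SE 0.50), while Slc36a1 fell. Slc36a3, next to Slc36a2, was not listed. Slc36a4, on chromosome 9, also had a higher mean (195 to 316 in controls, 269.7 to 577 in knockouts). A ratio of genes within a library does not depend on its size factor, and Slc36a2 stood to Slc36a1 at 0.0216, 0.00553 and 0.00879 in controls and at 0.0778, 0.0457 and 0.0318 in knockouts.

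Peptide carriers were split in the same way. Slc15a3 (ENSMUSG00000024737, chr19:10839727-10859362), a histidine and peptide transporter of lysosomes in macrophages and dendritic cells, rose from 383, 259 and 200 to 465, 666 and 601 normalized counts, with no overlap (log2 fold change 1.07, SE 0.32, adjusted p = 0.0637 by limma). Slc15a1, the apical transporter that absorbs dipeptides and tripeptides, had 1553, 1093 and 1369 in controls and 534, 535 and 1219 in knockouts. Its knockout library 3 lay within the control range, and it passed by p but not by fold (log2 fold change -0.91, SE 0.36, adjusted p = 0.0828 by limma). The ratio of Slc15a3 to Slc15a1 was 0.247, 0.236 and 0.146 in controls and 0.871, 1.24 and 0.493 in knockouts. Slc15a3 shares 28.1% of its exon bases with Tmem132a on the opposite strand, and Tmem132a was not listed.

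Of the 9 families with several listed members, 5 had differences in a single direction and 4 (Slc10, Slc15, Slc35 and Slc36) had members on both sides. In each of these 4 the ratio of the higher to the lower member was larger in every knockout library than in any control. This is a description of genes picked for lying on opposite sides, with no test. The narrowest was Slc35e4 to Slc35g1, at 0.0382 in the highest control and 0.0394 in the lowest knockout.

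**Figure D3:**
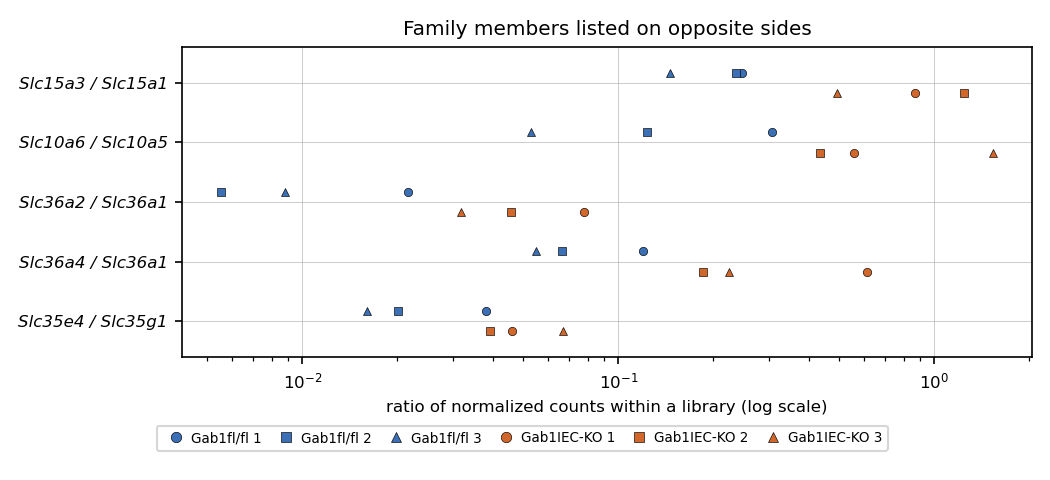
Ratio of normalized counts of family members within each library, on a log axis, for pairs whose means differed in opposite directions (blue, Gab1fl/fl; orange, Gab1IEC-KO). The pairs were picked for that, and the groups are apart in each, with the smallest gap for Slc35e4 over Slc35g1 (0.0382 against 0.0394).

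Slc37a2 showed the largest fall among listed solute carriers above a few reads (ENSMUSG00000032122, chr9:37227585-37255738). It encodes an exchanger of glucose 6-phosphate and phosphate in the endoplasmic reticulum and is known from macrophages. Its normalized counts were 1511, 1861 and 5119.7 in controls and 133, 392 and 847 in knockouts. The groups did not overlap although the controls were spread, with library 3 far above the others, and the log2 fold change was -2.78 (SE 0.71, adjusted p = 0.0563 by limma). Slc2a3, the high-affinity glucose transporter of neurons and leukocytes, had 229, 106 and 109 in controls and 271, 177 and 394 in knockouts (log2 fold change 0.94, SE 0.44, adjusted p = 0.0959 by limma).

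Slc23a4, Slc28a3 and the inositol and sodium-coupled sugar carriers of the Slc5 family had lower means in knockouts. Slc23a4 (ENSMUSG00000029847, chr6:34945278-34988404), known in the rat as an intestinal nucleobase transporter, fell from 88.3, 174 and 189.6 to 57.3, 84.8 and 53.8, where Gab1IEC-KO library 2 lay just below Gab1fl/fl library 1 (log2 fold change -1.15, SE 0.42, adjusted p = 0.0786 by limma). Slc28a3, the concentrative nucleoside transporter, had 461, 641 and 893 in controls and 85.9, 348 and 486 in knockouts (log2 fold change -1.39, SE 0.62, adjusted p = 0.0934 by limma). Gab1IEC-KO library 1 was far below the others, and without it the log2 fold change was -0.64. Slc5a3, which takes up myo-inositol, ranged from 1313 to 2778 in controls and from 1147 to 1429 in knockouts. Slc5a9, a mannose and glucose carrier, ranged from 1209 to 1477 in controls and from 699 to 1207 in knockouts, with the highest knockout and lowest control nearly equal.

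Among inorganic ion transporters, Slc26a7 (ENSMUSG00000040569, chr4:14502430-14621805), an anion exchanger, fell from a level of few reads. It had 9, 6 and 6 reads in controls and 0, 3 and 0 in knockouts. The ratio of knockout to control was 0.143, with an exact 95% counting interval of 0.0273 to 0.479, and the interval covers counting error only. Its fitted log2 fold change of -2.30 (SE 0.63, adjusted p = 0.0585 by limma) depends on the pseudocount and was -4.45 with 0.1, and Slc26a7 did not pass with DESeq2 (log2 fold change -2.79). Slc34a1, a sodium phosphate cotransporter, also had few reads. It ranged from 1.003 to 21.4 normalized counts in controls and from 2.12 to 4.56 in knockouts, with Gab1fl/fl library 1 below all knockouts. Slc34a1 shares 11.7% of its exon bases with Pfn3 on the opposite strand, and Pfn3 was not listed. Slc8a1, the sodium and calcium exchanger, had 207, 120 and 134 in controls and 552, 185 and 257 in knockouts (log2 fold change 0.99, SE 0.46, adjusted p = 0.0944 by limma), where Gab1IEC-KO library 2 lay under Gab1fl/fl library 1. It passed with edgeR (log2 fold change 1.11) and DESeq2 (1.11). Slc12a4, a potassium chloride cotransporter of cell volume control, ranged from 241 to 405 in controls and from 413 to 550 in knockouts.

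**Figure D4:**
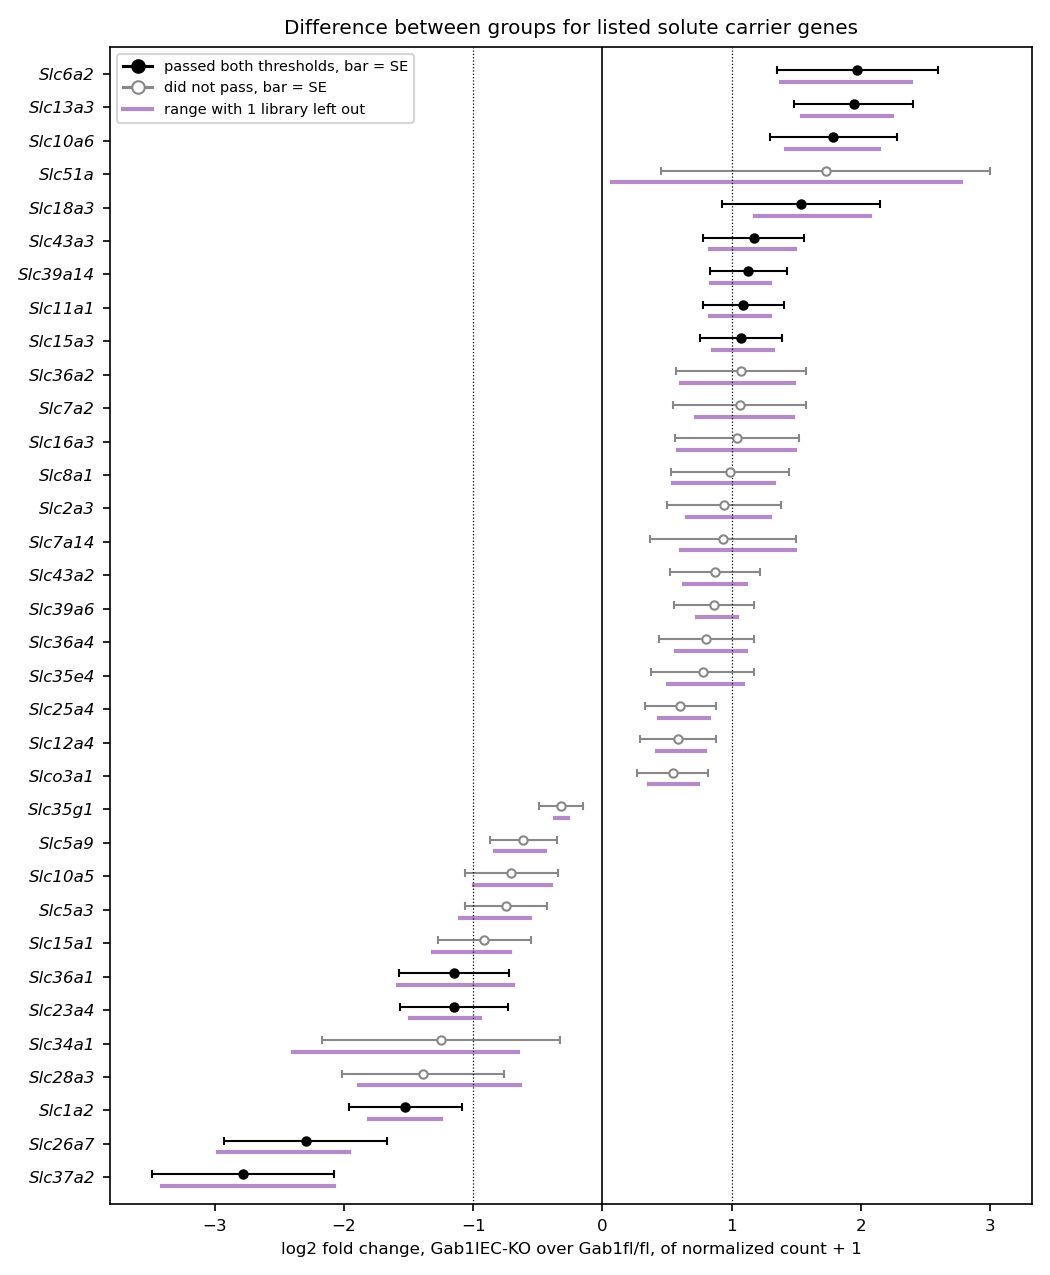
Log2 fold change of normalized count plus 1 (Gab1IEC-KO over Gab1fl/fl) for 34 of the genes with its standard error, filled where the gene passed both thresholds (13 plotted), and in purple the range of the value when each of the 6 libraries was left out in turn. Dotted lines mark the fold threshold of 1 in either direction; no range crosses 0, and that of Slc51a comes down to 0.07.

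The promoters of 4 genes are shown for the sequence at the start of genes with large differences: the 2 largest rises with a promoter entry, Slc11a1 as the phagosomal metal transporter, and Slc37a2 as the largest fall. In each of the 4 the RefSeq start lies within 100 bases of the gene start in the deposited table. They run from 250 bases before to 50 bases after the start in RefSeq on GRCm38.p6, 5′ to 3′ on the strand of the gene, with capitals for matches to the 8 motifs searched. They lie at chr2:165473148-165473447 (minus strand), chr5:103629354-103629653 (minus), chr1:74374953-74375252 (plus) and chr9:37255689-37255988 (minus) in the order given.
Slc13a3: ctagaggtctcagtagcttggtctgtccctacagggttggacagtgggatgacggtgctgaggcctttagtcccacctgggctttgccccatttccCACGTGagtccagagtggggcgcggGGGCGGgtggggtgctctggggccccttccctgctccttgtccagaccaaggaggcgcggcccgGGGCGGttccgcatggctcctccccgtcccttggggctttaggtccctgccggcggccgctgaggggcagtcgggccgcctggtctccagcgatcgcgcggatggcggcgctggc
Slc10a6: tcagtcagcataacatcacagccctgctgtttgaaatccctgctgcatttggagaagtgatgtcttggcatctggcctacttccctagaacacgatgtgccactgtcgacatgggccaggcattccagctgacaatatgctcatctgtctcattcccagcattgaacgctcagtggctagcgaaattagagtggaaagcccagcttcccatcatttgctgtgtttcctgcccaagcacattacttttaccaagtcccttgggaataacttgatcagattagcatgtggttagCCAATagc
Slc11a1: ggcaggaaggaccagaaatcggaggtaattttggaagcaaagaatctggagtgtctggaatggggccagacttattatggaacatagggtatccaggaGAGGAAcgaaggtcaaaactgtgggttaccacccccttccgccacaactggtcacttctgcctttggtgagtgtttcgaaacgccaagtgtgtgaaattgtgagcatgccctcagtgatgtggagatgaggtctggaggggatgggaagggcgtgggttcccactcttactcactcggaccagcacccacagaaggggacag
Slc37a2: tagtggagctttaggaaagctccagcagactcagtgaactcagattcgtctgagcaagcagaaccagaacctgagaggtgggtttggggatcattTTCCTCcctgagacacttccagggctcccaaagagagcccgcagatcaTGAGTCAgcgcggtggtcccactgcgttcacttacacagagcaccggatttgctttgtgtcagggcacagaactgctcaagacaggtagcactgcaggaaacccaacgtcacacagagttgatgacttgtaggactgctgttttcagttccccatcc

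The RefSeq promoter table had entries for 22 of the 35 members (13 higher and 9 lower), and both strands were searched. The RefSeq start was within 100 bases of the deposited gene start for 16 of the 22, so the windows of the other 6 lie at another start. In Slc13a3 the capitals mark GGGCGG, the GC box, at 2 places and ACGTG, the hypoxia response core, read on either strand within CACGTG. In Slc10a6 they mark CCAAT, after the start. In Slc11a1 they mark GAGGAA, a core bound by PU.1, the factor of myeloid cells, and in Slc37a2 its reverse complement together with TGANTCA, the AP-1 site. Across the matched members, GGGCGG was in 12 (35.7% of all 32851 promoters of that length), CCAAT in 7 (37.4%), GAGGAA in 9 (28.3%, 5 of the 13 higher and 4 of the 9 lower), ACGTG in 6 (19.6%), TATAAA in 1 (13.6%) and TGANTCA in 1 (7.81%). TGATGNAA, the amino acid response element core (3.97%), and CAAAGTCCA, an HNF4 site (0.475%), were in 0. A match is a stretch of letters, not a bound site.

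Levels were compared between genes per kilobase of the deposited gene length. Slc35g1, of the nucleotide sugar transporter family, was the most abundant listed member, at 1220.5 ± 84.7 (SD, n = 3) normalized counts per kilobase in controls and 979 ± 70.9 (SD, n = 3) in knockouts. Its counts were 3972, 4552 and 4185 in controls and 3631, 3425 and 3140.4 in knockouts. The groups did not overlap, yet the difference was the smallest of all members (log2 fold change -0.32, SE 0.17, adjusted p = 0.112 by limma). Slc25a4, the mitochondrial exchanger of ADP and ATP, was next by the mean over all libraries, with 1334, 1006 and 912 in controls and 1755, 1199 and 2039 in knockouts (log2 fold change 0.60, SE 0.27). Slc36a1, Slc43a3 and Slc37a2 followed, at a mean over all libraries of 424, 304 and 247 per kilobase. The order differed between the groups. Slc36a1 stood above Slc25a4 in controls (564 against 461 per kilobase) and below it in knockouts (283 against 707). In controls Slc37a2 had 426 ± 299.6 (SD, n = 3) per kilobase and Slc43a3 186 ± 77.8 (SD, n = 3), and in knockouts they had 68.9 ± 54.5 and 422 ± 188 (SD, n = 3). The level of Slc8a1 per kilobase is uncertain, since its deposited length of 2934 bases is far below the 18807 exon bases of the annotation. At the low end Slc26a7, Slc6a2 and Slc1a2 had means of 0.74 to 1.04 per kilobase.

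The transporters were also read against lists for a cell type or state, beside 70.0% higher, 28.5% risen and 9.16% fallen over all listed genes, with no test of the lists. Of 50 colonocyte transporters, 4 were listed (Slc15a1, Slc28a3, Slc36a1 and Slc51a), of which Slc36a1 fell and none rose, with a median log2 fold change of -1.03. The sodium hydrogen exchanger Slc9a3, the anion exchanger Slc26a3 and the butyrate carriers Slc16a1 and Slc5a8 were among those not listed. Of 26 transporters known from myeloid cells, 11 were listed and 10 had higher means, with 4 rises (Slc11a1, Slc15a3, Slc39a14 and Slc43a3), 1 fall (Slc37a2) and a median log2 fold change of 1.04. The summed counts of the 11 overlapped between the groups, at 5257 to 7871 in controls and 6539 to 11025.5 in knockouts. Of 19 transporters known to be induced in inflamed gut or by hypoxia and stress, 4 were listed (Slc16a3, Slc2a3, Slc39a14 and Slc7a2), all with higher means, and Slc39a14 rose. These 4 are also on the myeloid list and are not a separate set of genes. All listed genes together had a median of 0.79.

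Marker lists of the cell types in the tissue moved beside these groups. Neutrophil markers (9 of 14 listed) summed to 547 to 1435 normalized counts in controls and 1763 to 4889.8 in knockouts, and monocyte and macrophage markers (9 of 14) to 7877 to 9543 and 11936 to 18294. Fibroblast markers (10 of 10) summed to 23457 to 35842 and 47814 to 84069, and endothelial markers (3 of 5) to 2100.2 to 3462 and 3198 to 6304. The neutrophil, macrophage and fibroblast sums did not overlap between the groups, and the endothelial sums did. Rises numbered 8 of 9 neutrophil, 2 of 9 macrophage, 4 of 10 fibroblast and 0 of 3 endothelial markers. Over all listed genes 28.5% rose. Each marker is in the table for its own difference between these libraries, so separation of the sums is no independent evidence. Of 18 epithelial markers only Aqp8, a water channel of colonocytes, was listed, at 3556 to 6434 in controls and 2039 to 4817 in knockouts. T cell markers (2 of 8), B and plasma cell markers (3 of 8) and red blood cell markers (1 of 6) summed to 150 to 275, 2983 to 4652 and 35.4 to 294 in controls and to 266 to 422, 4475 to 6544 and 333 to 597 in knockouts. The red blood cell values, of 1 gene, did not overlap between the groups either, and the T cell and B and plasma cell sums did. None of the listed markers' sums was at 0 in any library, and markers outside the table have no value. Of the 3 B and plasma cell markers, Ms4a1 and Fcer2a fell and Sdc1, which gives most of the sum, had a higher mean (median log2 fold change of the 3, -1.52). The part of the markers in the transporter differences was not tested.

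**Figure D5:**
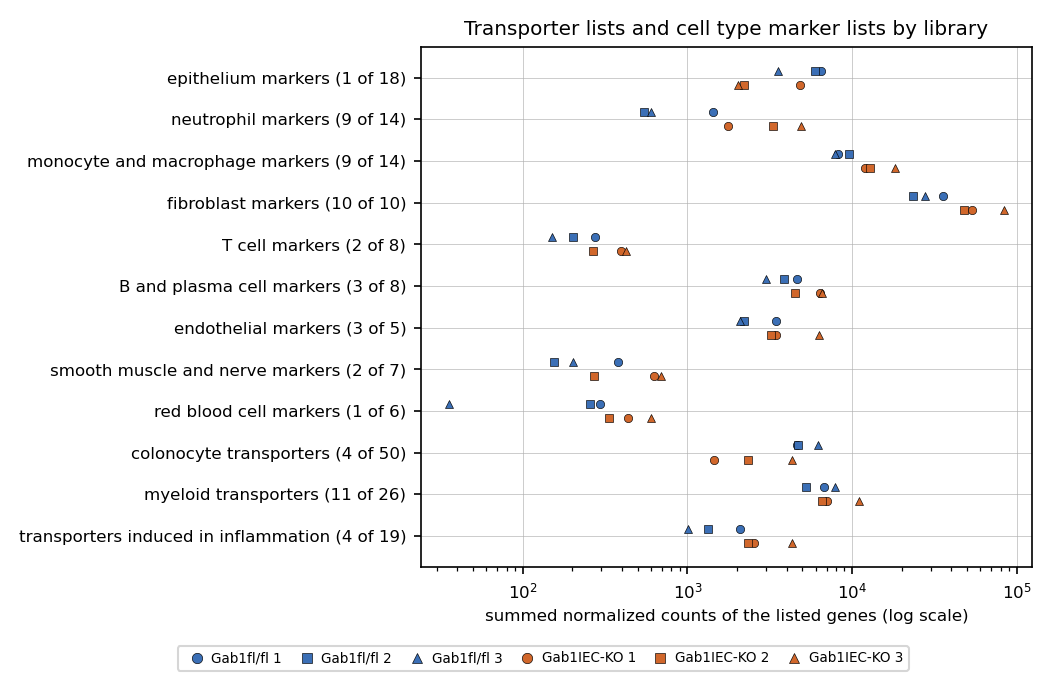
Summed normalized counts of the listed genes of each marker or transporter list, on a log axis, with 1 symbol for each library and the number listed of the number on the list in brackets. Neutrophil, macrophage, fibroblast, red blood cell and induced transporter sums are higher in every Gab1IEC-KO library. The myeloid transporter sums overlap (5257 to 7871 in Gab1fl/fl, 6539 to 11025.5 in Gab1IEC-KO libraries). The colonocyte transporter sum (4 of 50) is lower in every one, with Gab1IEC-KO library 3 at 4289.6 below the lowest control at 4659. Slc36a1 is the largest part of that sum in each library, and Slc51a had a higher mean in knockouts. Every summed gene is in the table for its own difference.

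The libraries of a group were not even. Among the 23 members with a higher mean in knockouts, Gab1fl/fl library 1 was the highest control in 22 (95.7%, against 81.9% of all listed higher genes), and Gab1IEC-KO library 3 was the highest knockout in 18 (78.3%, against 61.9%). Gab1IEC-KO library 2 was the lowest knockout in 15 (65.2%, against 68.1%). Among the 12 lower members, Gab1IEC-KO library 1 was the lowest knockout in 7 (58.3%, against 43.4% of all listed lower genes). In 7 of these 12, Gab1IEC-KO library 3 was the highest knockout (58.3%, against 27.0%). The median coefficient of variation was 33.3% in controls and 37.8% in knockouts, beside 30.3% and 31.8% over all listed genes.

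Leaving out 1 library at a time moved the number of rises between 4 and 18 and that of falls between 3 and 6. Rises numbered 18 without Gab1fl/fl library 1, 14 without Gab1IEC-KO library 2, 5 without Gab1IEC-KO library 3 and 4 without Gab1fl/fl library 3, and falls numbered 3 without Gab1fl/fl library 3 and 3 without Gab1IEC-KO library 1. Higher members without overlap numbered 21 without Gab1fl/fl library 1 and 22 without Gab1IEC-KO library 2. Leaving out the highest control or the lowest knockout makes non-overlap easier to reach. Over all listed higher genes, Gab1fl/fl library 1 was the highest control in 81.9% and Gab1IEC-KO library 2 the lowest knockout in 68.1%. Counts over all listed genes were not made for the omissions, so nothing particular to the class is read from these. Slc13a3, Slc10a6, Slc6a2, Slc37a2, Slc1a2 and Slc26a7 passed in all 6 omissions. Slc39a14 dropped under the fold threshold without Gab1IEC-KO library 3 (log2 fold change 0.84), and Slc11a1 and Slc15a3 did so without Gab1fl/fl library 3 (0.83 and 0.86) and without Gab1IEC-KO library 2 (0.99 and 0.96). Slc43a3 was lost without Gab1fl/fl libraries 2 or 3 or Gab1IEC-KO library 3 (1.07, 0.95 and 0.83). Slc18a3 was lost by p without Gab1fl/fl libraries 2 or 3 or Gab1IEC-KO libraries 1 or 3, with log2 fold changes of 1.18 to 1.35. Slc23a4 was lost in the same 4 omissions (-1.07 to -0.95). Slc36a1 was lost without Gab1fl/fl libraries 2 or 3 or Gab1IEC-KO libraries 1 or 2 (-1.19, -0.98, -0.69 and -1.17). Members that did not pass with all 6 libraries but did in an omission were 10 without Gab1fl/fl library 1 (absolute log2 fold changes 1.01 to 2.40, Slc34a1 the largest), 7 without Gab1IEC-KO library 2 (1.04 to 1.49), 2 without Gab1IEC-KO library 3 (Slc15a1 at -1.31 and Slc28a3 at -1.88), 2 without Gab1fl/fl library 2 (Slc15a1 at -1.05 and Slc5a3 at -1.10) and 1 without Gab1IEC-KO library 1 (Slc7a2 at 1.42).

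Direction was the same for all 35 members in each of the 11 alternatives that gave them a value.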

How the data were processed

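Colon RNA was sequenced in 6 libraries, 3 Gab1fl/fl and 3 Gab1IEC-KO. Per the submitters' processing notes, reads were aligned with HISAT2 2.0.5 and counted with featureCounts 1.5.0-p3. The notes name a human build, whereas 2113 of the 2195 deposited gene positions are identical to those of GENCODE M21 on mouse GRCm38. The authors deposited a signal per gene and library, read counts divided by a size factor, together with group means, fold changes, p-values and adjusted p-values of their own comparison, which were not used. The table holds genes with an unadjusted p under 0.05 in that comparison. A further deposited table with only the authors' comparison was not used.

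Dividing the deposited signal by each library's step gave whole numbers of reads (tolerance 0.01) in 100% of cases. limma 3.58.1 (R 4.3.3), with a trend, was run on log2 of the value plus 1 over all 2195 genes, so fold changes of low genes are understated. Tests were two-sided. Where few reads were counted, ratios of reads pooled within each group carry exact Clopper-Pearson 95% intervals. The tests were also run on simulated data with 200 changed genes. The simulation did not copy the choice of listed genes by p, so it gives no error rate for them. Alternatives were edgeR 4.0.16 (quasi-likelihood) and DESeq2 1.42.0 on the recovered reads with the deposited scaling, a pseudocount of 0.1, a minimum mean of 10, the replicate number as a block, and each library left out.

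The members, cargo groups and gene lists were chosen with earlier results of these data known. Values in every library are given for 24 members: those past both thresholds, those on the lists of colonocyte, myeloid and induced transporters, and the 5 highest per kilobase. Other members are given by range. Marker lists covered epithelium, neutrophils, monocytes and macrophages, fibroblasts, T cells, B and plasma cells, endothelium, smooth muscle and nerve, and red blood cells. The antisense transcript, Slc13a2os, was left out as not protein-coding. Exon overlaps came from GENCODE M21. Promoters came from RefSeq, and the motifs and genes shown were chosen after the values were seen. A member and a marker gene are not reported here, although the member is included in the counts.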

Additional observations from a re-analysis of the deposited data

How the results depend on the processing

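The counts of rises (9) and falls (5) were unchanged with a pseudocount of 0.1, and were 8 and 4 with a minimum mean of 10, which removed Slc6a2, Slc26a7 and Slc34a1. edgeR gave 11 and 4 and DESeq2 11 and 3, adding Slc51a and Slc8a1 and dropping Slc36a1, and by DESeq2 also Slc26a7. Past both thresholds, limma called 14 of 35 members and 826 of 2195 listed genes, edgeR 15 and 855, and DESeq2 14 and 953. By p alone, 11 members were higher and 8 lower, together 54.3% of members against 55.0% of all listed genes. With 1 library left out, rises ranged from 4 to 18 and falls from 3 to 6, members without overlap from 11 to 22 on the higher side and from 7 to 10 on the lower side. The cause was not tested, and the same counts over all listed genes were not made. Ranking by level without gene length kept 4 of the 5 most abundant members.

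With the replicate number as a block (replicate block), 9 members rose and 6 fell, Slc28a3 being added. Counts over all listed genes were not made for the block, the pseudocount of 0.1 or the minimum mean of 10. Nothing particular to the class is read from these settings. Same-numbered libraries had deviations correlated at 0.20, 0.30 and -0.14, and not every library correlated best with its own number. With 3 libraries in a group the deviations are tied to each other, so these correlations cannot show whether the numbers pair the libraries. Other scaling could not be fitted, since genes outside the table have no value. Slc26a7, Slc6a2 and Slc34a1, at means under 10, are limited by counting error.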
